A study of Mus musculus with 6 samples.

Results

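Muscle fibre metabolic genes were examined in nascent transcription profiles of cultured muscle stem cells (MuSCs). The group holds 10 of the 14546 genes listed in the deposited table: *Car3*, *Nmrk2*, *Pygm*, *Pgam2*, *Eno3*, *Ckm*, *Ckmt2*, *Mb*, *Fabp3* and *Pvalb*, found by their symbols. All 10 were listed. A filter on low values, which demands a mean of 0.5 or more in each of the measured regions, left 9 of them among 12451 autosomal genes, and *Pvalb* was removed for its low values at the start of the gene. The genes were chosen by their values in these same libraries: the difference between genotypes, above all the gene body difference of *Car3*, was known when they were put together. Their differences between genotypes are therefore given as a description. The calls of a fit over all genes are counted for them as well, and nothing is read from those counts.

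A muscle fibre draws its energy from several linked routes. Glycogen is broken down by the muscle phosphorylase PYGM, and the sugar phosphates pass through glycolysis, where PGAM2 and ENO3 catalyse late steps. The creatine kinases CKM in the cytosol and CKMT2 in mitochondria exchange phosphate between ATP and creatine. Myoglobin (MB) binds oxygen and FABP3 carries fatty acids, both chiefly in oxidative fibres and in heart. CAR3 is a cytosolic carbonic anhydrase that is abundant in slow fibres and in fat, NMRK2 is the nicotinamide riboside kinase of muscle and acts in NAD synthesis, and parvalbumin (PVALB) buffers calcium in fast fibres. Most of these proteins have a relative, encoded by another gene, that serves other tissues.

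PRO-seq measures engaged RNA polymerases: in a run-on reaction nascent RNA is extended with biotin-labelled nucleotides, which allows that RNA to be captured for sequencing. Each group had 3 libraries of proliferating MuSCs from mice kept on a C57BL/6 background. Ctrl cells came from Pax7CreERT mice with wild-type *Kmt5b* (also called *Suv4-20h1*), a histone H4 lysine methyltransferase, and *Kmt5b* sKO cells from Pax7CreERT mice in which both *Kmt5b* alleles were floxed. Adult mice received tamoxifen, which activates the Cre recombinase in *Pax7*-expressing cells. The MuSCs were then purified from limb and trunk muscle with magnetic beads and cultured in growth medium. The libraries thus hold a bulk population, in which the part of fibre or differentiating cells was not tested. Because Cre is active only in cells that express *Pax7*, other cells carried along in the isolation would keep *Kmt5b*. The study describes the 3 libraries of a group as biological replicates. The labels do not say whether each came from a separate mouse.

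The listed genes held between 926904 and 3246052 reads per library in the TSS region (the first 400 nt of the transcript) and between 7425421 and 16249131 in gene bodies, as recovered from the steps between the deposited values. TSS values are in RPM (reads scaled to a fixed total per library) and gene body values in TPM, which also divides by length. *Kmt5b* itself had 30.6, 35.4 and 38.5 TPM in Ctrl replicates 1 to 3 against 37.8, 35.0 and 42.6 TPM in *Kmt5b* sKO replicates 1 to 3, so its gene body does not check the labels. MuSC markers were well transcribed in both groups. *Myod1*, a myogenic transcription factor, had 855 to 1272 TPM in Ctrl against 1091 to 1328 TPM in *Kmt5b* sKO libraries, and *Pax7*, which defines the stem cells, had 26.0 to 53.7 and 25.5 to 29.5 TPM.

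The stretches before the starts of the genes were searched for a few short sequence motifs. RefSeq promoter windows of the build GRCm38.p6 were at hand for 9 of the 10 genes, all except *Car3*. Of these, 5 are printed, each ending before both the listed transcript and the RefSeq start: *Nmrk2*, which had a large difference and a TATA box, *Pgam2*, which had the most E-boxes, *Pygm* and *Mb*, which hold the E-box form CAGCTG, and *Pvalb*, which had no E-box. Capitals mark E-boxes (CANNTG) and matches to the MEF2 consensus.
Nmrk2: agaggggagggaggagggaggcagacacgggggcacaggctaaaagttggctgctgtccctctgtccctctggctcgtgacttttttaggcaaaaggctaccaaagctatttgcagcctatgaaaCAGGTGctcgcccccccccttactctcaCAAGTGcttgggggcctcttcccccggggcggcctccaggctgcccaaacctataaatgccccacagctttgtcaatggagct
Pgam2: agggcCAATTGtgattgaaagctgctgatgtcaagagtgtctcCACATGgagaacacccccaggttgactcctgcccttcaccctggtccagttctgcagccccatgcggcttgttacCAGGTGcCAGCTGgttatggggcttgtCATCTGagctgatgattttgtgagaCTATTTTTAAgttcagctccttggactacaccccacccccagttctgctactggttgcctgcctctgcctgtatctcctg
Pygm: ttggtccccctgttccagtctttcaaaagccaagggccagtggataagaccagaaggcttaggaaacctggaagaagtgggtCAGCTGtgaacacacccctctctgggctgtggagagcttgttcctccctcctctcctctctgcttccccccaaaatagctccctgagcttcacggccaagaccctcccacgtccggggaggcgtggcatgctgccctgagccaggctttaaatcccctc
Mb: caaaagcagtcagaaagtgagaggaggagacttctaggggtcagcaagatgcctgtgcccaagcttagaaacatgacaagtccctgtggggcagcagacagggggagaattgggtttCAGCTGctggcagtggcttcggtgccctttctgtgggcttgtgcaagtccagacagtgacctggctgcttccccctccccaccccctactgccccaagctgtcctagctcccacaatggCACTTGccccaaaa
Pvalb: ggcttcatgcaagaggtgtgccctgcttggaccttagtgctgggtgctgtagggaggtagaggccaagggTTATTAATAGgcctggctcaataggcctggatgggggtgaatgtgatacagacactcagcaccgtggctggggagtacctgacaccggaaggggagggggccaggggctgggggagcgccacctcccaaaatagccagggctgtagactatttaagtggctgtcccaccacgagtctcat
The stretches lie at chr10:81202052-81202287 on the minus strand (*Nmrk2*), chr11:5803797-5804046 on the minus strand (*Pgam2*), chr19:6384158-6384398 on the plus strand (*Pygm*), chr15:77022788-77023037 on the minus strand (*Mb*) and chr15:78206401-78206650 on the minus strand (*Pvalb*).

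E-boxes are bound by MYOD1 and its relatives, and MEF2 sites by another family of muscle transcription factors. In the 250 bases upstream of the RefSeq start, counted on both strands, 8 of the 9 windows held CANNTG, against 66.2% of 32851 promoters. The palindromic form CAGCTG was found in 5 of 9 windows (*Pygm*, *Pgam2*, *Ckm*, *Ckmt2* and *Mb*) and in 13% of all promoters. The form CAGGTG, with its reverse complement CACCTG, was found in 3 of 9 (*Nmrk2*, *Pgam2* and *Ckmt2*) and in 17.2%. Both forms are themselves instances of CANNTG. *Pgam2* held 5 E-boxes, a number reached by 1.15% of promoters, and 1 MEF2 match at -80 from the start. *Pvalb* held the other MEF2 match, at -180, and 2.92% of all promoters had one. The MCAT letters CATTCC were found at *Eno3* alone (12.6% of promoters) and TATAAA at *Nmrk2* alone (12.4%). These matches describe the letters and do not show that a factor was bound. The listed transcript starts of *Mb*, *Ckmt2* and *Pvalb* coincide with the RefSeq start, and the others lie 9 to 143 nt away, the farthest being *Fabp3*.

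In Ctrl MuSCs the members were transcribed at very different rates per length. *Eno3* stood apart with 166 ± 12.5 TPM (SD, n = 3) in the gene body, above 98.2% of the listed genes and above every other member in each library. *Mb*, *Pgam2*, *Pygm* and *Ckm* followed with 47.0 ± 18.3, 40.4 ± 23.7, 29.1 ± 10.5 and 23.1 ± 12.6 TPM (SD, n = 3 each), and the libraries of each overlapped those of the next. *Nmrk2* had 6.48 ± 0.811, *Fabp3* 5.13 ± 2.74, *Car3* 2.94 ± 0.886 and *Pvalb* 2.13 ± 1.2 TPM (SD, n = 3 each), again without a gap between neighbours. *Ckmt2* was the lowest in every Ctrl library, at 0.347 ± 0.258 TPM (SD, n = 3), below all but 2.40% of genes. The median listed gene had 13.3 TPM, so 5 members lay above it and 5 below. In *Kmt5b* sKO MuSCs the order of the gene body means was the same apart from *Car3*, which stood above *Fabp3* with 19.5 ± 9.76 against 8.64 ± 3.42 TPM (SD, n = 3 each). There too, *Eno3* was the highest member in each library.

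**Figure D1:**
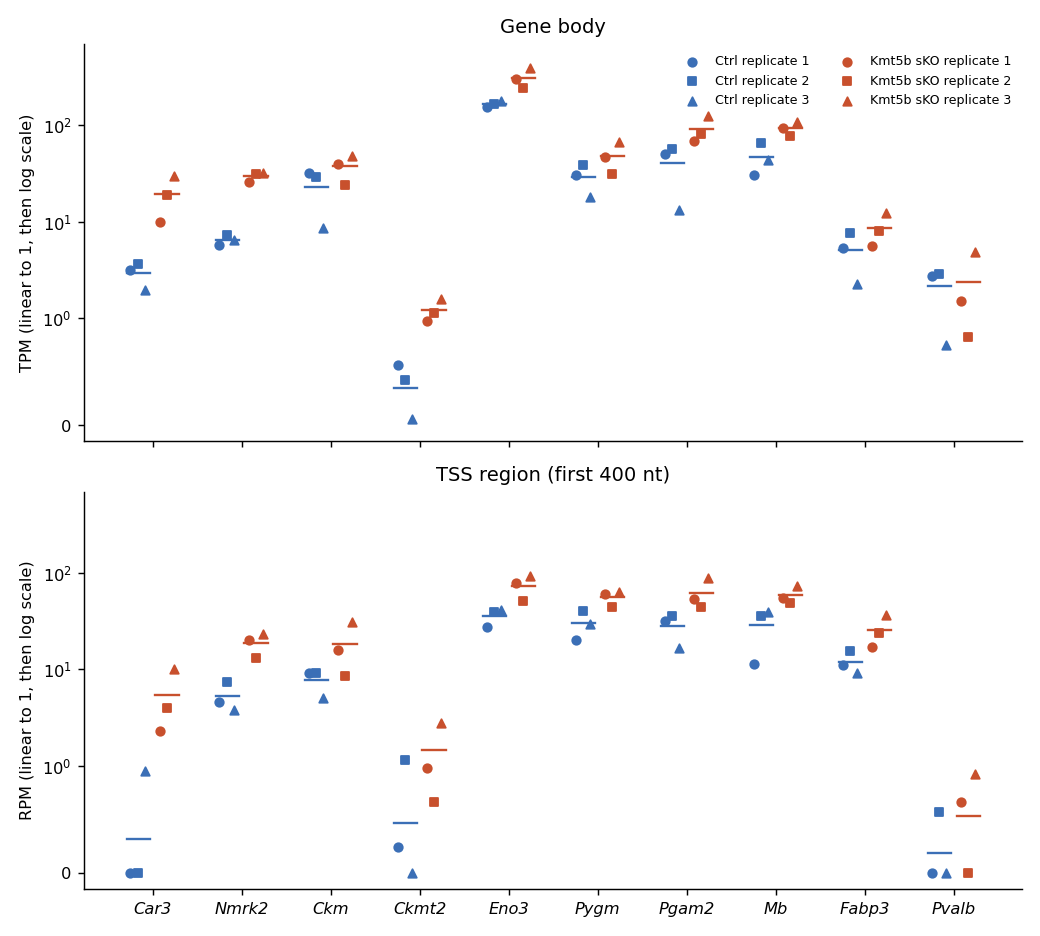
Values of the 10 genes in each of the 6 libraries, in TPM for the gene body (upper panel) and RPM for the TSS region (lower panel), on an axis that is linear up to 1 and logarithmic above. Points are libraries and bars are means of 3. *Kmt5b* sKO replicate 3 is the highest point for all 10 genes in both panels.

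*Car3* (ENSMUSG00000027559) spans 14863538 to 14872523 on chromosome 3 (GRCm38, plus strand). The listed transcript has 7 exons, and 18.8% of its 8585 nt gene body is exonic. That gene body had 3.19, 3.68 and 1.96 TPM in Ctrl replicates 1 to 3 against 10.1, 19.0 and 29.6 TPM in *Kmt5b* sKO replicates 1 to 3, so all *Kmt5b* sKO libraries lay above all Ctrl libraries and spread over a wide range among themselves. The fitted difference on the log2(TPM + 0.5) scale was 2.45 with a standard error of 0.39 (95% interval 1.54 to 3.36). In the TSS region *Car3* had 0, 0 and 5 reads in the Ctrl libraries against 7, 6 and 22 in the *Kmt5b* sKO ones, or 0, 0 and 0.95 against 2.29, 3.96 and 10.1 RPM. At such depth the log2 difference of 2.84 in the TSS region depended on the pseudocount, with 4.40 for a pseudocount of 0.1 and 1.57 for 2. The gene body rested on 24 to 242 reads per library.

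*Car3* is one of a row of carbonic anhydrase genes on chromosome 3. *Car2*, a carbonic anhydrase of many tissues, starts downstream on the same strand at 14886428. It had 4.56, 5.73 and 1.25 TPM in Ctrl against 0.71, 0.44 and 1.88 TPM in *Kmt5b* sKO gene bodies, with overlapping groups and a log2 difference of -1.45 (limma, adjusted p = 0.25). *Car13*, upstream on the same strand, had 2.78 to 4 TPM in Ctrl against 2.12 to 4.37 TPM in *Kmt5b* sKO libraries, again with overlap. *Car1*, on the opposite strand between *Car13* and *Car3*, had no TSS signal and was not tested. Its gene body had 0.39 to 0.44 TPM in Ctrl against 0.52 to 1.88 TPM in *Kmt5b* sKO libraries, without overlap. The nearest gene upstream on the strand of *Car3*, *Car13*, ends 200536 nt away.

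*Nmrk2* (ENSMUSG00000004939) lies on the minus strand of chromosome 10 from 81198170 to 81202051, with *Atcayos* antisense to it. The authors counted only reads of the gene's own strand, on which *Atcay* ends 2457 nt upstream. Polymerase running on from *Atcay* was not tested for. The *Nmrk2* gene body had 5.70, 7.32 and 6.43 TPM in Ctrl against 26.1, 31.1 and 31.9 TPM in *Kmt5b* sKO libraries. Replicates lay close together in both groups and the groups were far apart, with a log2 difference of 2.11 (standard error 0.15, 95% interval 1.76 to 2.47). The TSS region had 4.60, 7.47 and 3.79 RPM in Ctrl against 20.3, 13.2 and 23.5 RPM in *Kmt5b* sKO libraries, a log2 difference of 1.76 (95% interval 0.96 to 2.57). Between 29 and 106 gene body reads and 13 to 62 TSS reads lay behind these values. Of the 9 members fitted, *Nmrk2* moved least when single libraries were left out, between 2.03 and 2.20 in the gene body.

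The genes of glycogen breakdown and glycolysis had smaller differences between the groups. *Eno3* (chromosome 11, plus strand, 70657202 to 70662513) had 154, 166 and 179 TPM in Ctrl against 301, 244 and 394 TPM in *Kmt5b* sKO gene bodies, and 27.4, 39.1 and 41.3 against 78.0, 50.9 and 93.8 RPM in the TSS region. The groups did not overlap in either region, and the log2 differences were 0.88 (95% interval 0.42 to 1.34) and 1.02 (0.47 to 1.56). *Pgam2* (chromosome 11, minus strand, 5801640 to 5803733) had 50.9, 57.1 and 13.2 TPM in Ctrl against 68.6, 81.2 and 124 TPM in *Kmt5b* sKO gene bodies. The groups were separate, but Ctrl replicate 3 lay far below the other Ctrl libraries. Without it the log2 difference in the gene body was 0.71 instead of 1.37 (95% interval 0.13 to 2.62 with all libraries). Its TSS region, which is exonic over all 400 nt, had 31.7, 35.6 and 16.7 RPM in Ctrl against 53.4, 44.2 and 89.7 RPM in *Kmt5b* sKO libraries, again without overlap. *Pygm* (chromosome 19, plus strand, 6384399 to 6398459) had 30.5, 38.9 and 18.0 TPM against 46.8, 31.6 and 66.5 TPM in the gene body, where the groups overlapped, and 20.3, 40.8 and 29.6 against 60.3, 44.2 and 63.9 RPM in the TSS region, where they did not. The 95% interval of its log2 difference reached from -0.08 to 1.53 in the gene body and from 0.35 to 1.49 in the TSS region. Without Ctrl replicate 3, the gene body value of *Pygm* was 0.42 instead of 0.72, and without *Kmt5b* sKO replicate 3 it was 0.46.

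The creatine kinases differed in level by far more than between the genotypes. *Ckm* (chromosome 7, plus strand, 19411025 to 19422841, with *A930016O22Rik* antisense) had 31.7, 28.9 and 8.70 TPM in Ctrl against 40.1, 24.3 and 48.3 TPM in *Kmt5b* sKO gene bodies. The groups overlapped, and the log2 difference of 0.83 (95% interval -0.32 to 1.98) was 0.25 without Ctrl replicate 3. The TSS region of *Ckm*, with 9.20, 9.19 and 5.11 against 16.1, 8.58 and 30.8 RPM, overlapped too. There the log2 difference of 1.05 was 0.60 without *Kmt5b* sKO replicate 3. *Ckmt2* (chromosome 13, minus strand, 91853387 to 91876885, with *1700119I11Rik* antisense) was barely transcribed, with 0.56, 0.42 and 0.06 TPM in Ctrl against 0.97, 1.12 and 1.59 TPM in *Kmt5b* sKO gene bodies. These levels rest on 19, 11 and 2 against 25, 17 and 35 reads. On the same strand *Rasgrf2* ends 3515 nt upstream, and polymerase running on from it was not tested for. The groups did not overlap, and the log2 difference on the log2(TPM + 0.5) scale was 1.06 (95% interval 0.32 to 1.80). This value depended on the pseudocount, with 1.78 for a pseudocount of 0.1 and 0.46 for 2, and was 1.81 with edgeR on recovered reads. The TSS region of *Ckmt2* held 3 reads over all Ctrl libraries and 10 over all *Kmt5b* sKO libraries, too few for a fold.

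*Mb*, the oxygen carrier (chromosome 15, minus strand, 77015489 to 77022787, with *Gm49540* antisense) had 30.2, 66.5 and 44.2 TPM in Ctrl against 93.0, 78.1 and 109 TPM in *Kmt5b* sKO gene bodies. The groups were separate and the log2 difference was 1.04 (95% interval 0.39 to 1.70). Its TSS region had 11.4, 36.2 and 39.2 RPM in Ctrl against 54.7, 48.9 and 72.7 RPM in *Kmt5b* sKO libraries, and without Ctrl replicate 1, the lowest, the log2 difference there was 0.61 instead of 1.18. *Fabp3*, the fatty acid carrier (chromosome 4, plus strand, 130308595 to 130315463) lies opposite to *Gm10570* and *Zcchc17* on the minus strand. Its gene body had 5.39, 7.74 and 2.27 TPM in Ctrl against 5.56, 8.03 and 12.3 TPM in *Kmt5b* sKO libraries, with overlap, and the log2 difference of 0.77 (95% interval -0.25 to 1.78) was 0.32 without Ctrl replicate 3 and 0.49 without *Kmt5b* sKO replicate 3. In its TSS region the groups were separate, with 11.1, 15.5 and 9.28 against 17.1, 23.8 and 36.8 RPM and a log2 difference of 1.04 (95% interval 0.34 to 1.75).

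*Pvalb* (chromosome 15, minus strand, 78191117 to 78206400) had overlapping groups in both regions. Its gene body had 2.76, 2.89 and 0.75 TPM in Ctrl against 1.51, 0.82 and 4.86 TPM in *Kmt5b* sKO libraries. The means of 2.13 ± 1.2 and 2.40 ± 2.16 TPM (SD, n = 3 each) lay closer than the libraries of either group. At most 2 TSS reads were found in any library, so polymerase at its start was at the limit of detection in both groups.

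Among the 9 members that passed the filter, the fitted log2 difference was above 0 in 9 of 9 in both regions, where 53.8% of all tested genes were above 0 in the gene body and 58.2% in the TSS region. The median was 1.04 in the gene body and 1.07 in the TSS region (1.10 without *Ckmt2*, whose few reads set that median), against 0.02 and 0.08 over all 12451 genes. The filter used the mean over all 6 libraries. In the TSS region *Car3* and *Ckmt2* reached 0.5 only through the *Kmt5b* sKO libraries. Their TSS means were 0.317 and 0.463 RPM in Ctrl against 5.46 and 1.47 RPM in *Kmt5b* sKO. The same held for the gene body of *Ckmt2*, with 0.347 against 1.23 TPM. The filter thus favoured a difference above 0 for these members. All *Kmt5b* sKO libraries lay above all Ctrl libraries for 6 of 10 members in the gene body (12% of tested genes, or 21.4% apart in either direction) and 7 of 10 in the TSS region (10.2%, or 15.6% in either direction). At an adjusted p under 0.1 in limma, 3 of 9 passed in the gene body (*Eno3*, *Nmrk2* and *Car3*), where 1.61% of tested genes were called higher and 1.38% lower, 2.99% together. In the TSS region 4 of 9 passed (*Eno3*, *Pgam2*, *Nmrk2* and *Car3*), against 0.932% called higher and 0.731% lower, 1.66% together. As the genotype contrast chose the members, nothing is read from these counts. The gene body calls were also lost for all 3 genes when Ctrl replicate 1 or any 1 of the *Kmt5b* sKO libraries was left out, and the TSS calls for all 4 without Ctrl replicate 1 or *Kmt5b* sKO replicate 1 or 3.

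**Figure D2:**
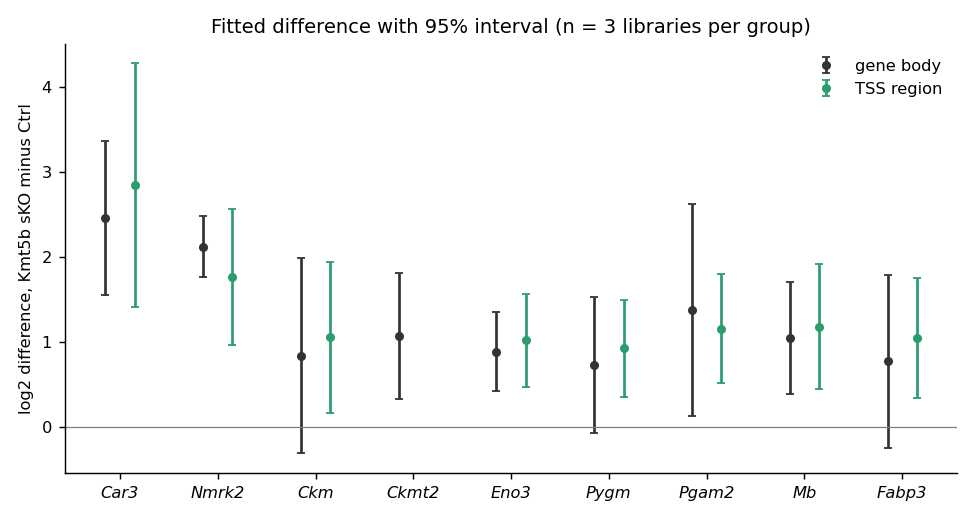
Fitted log2 difference (*Kmt5b* sKO minus Ctrl) of the 9 members that passed the filter, in the gene body (black) and the TSS region (green), with 95% intervals from limma (3 libraries per group). *Car3* and *Nmrk2* have the highest values in both regions, and the gene body intervals of *Ckm*, *Pygm* and *Fabp3* reach below 0. The TSS value of *Ckmt2* is left out, as it rests on 3 Ctrl reads. That of *Car3* rests on 5 Ctrl reads, all in replicate 3, and its size depends on the pseudocount.

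The pausing index divides the TSS value by that of the gene body and so relates polymerase near the start to polymerase further along. It could be fitted for 7 members with reads in both regions of all libraries. In Ctrl MuSCs it ranged from 0.214 ± 0.032 for *Eno3* to 2.72 ± 1.19 for *Fabp3* (SD, n = 3 each), and *Fabp3* was the only 1 of the 7 above the median of 1.55 over 11698 genes. *Pygm* had 1.12 ± 0.493, *Pgam2* 0.836 ± 0.367, *Nmrk2* 0.806 ± 0.216, *Mb* 0.603 ± 0.260 and *Ckm* 0.398 ± 0.164 (SD, n = 3 each). Between genotypes the log2 index differed by -0.33 for *Nmrk2* to 0.25 for *Ckm*, and every 95% interval of the 7 included 0. For *Nmrk2*, for example, the index was 0.807, 1.02 and 0.589 in Ctrl against 0.779, 0.424 and 0.735 in *Kmt5b* sKO libraries, with an interval of the log2 difference from -1.14 to 0.47. Without *Kmt5b* sKO replicate 2, its lowest library, that difference was -0.06. Intervals of this width do not show that the index was alike in both groups. The index of *Car3* was 0 in Ctrl replicates 1 and 2, where no TSS read was found, 0.485 in Ctrl replicate 3, and 0.228, 0.208 and 0.342 in the *Kmt5b* sKO libraries.

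The relatives of these enzymes that serve other tissues were compared per length in the same libraries. Of 18 such genes, 13 were listed and 10 tested. In limma 0 of 10 passed the threshold in the gene body or the TSS region (1 and 2 at an unadjusted p under 0.05). Of all tested genes only 2.99% and 1.66% passed, so this count does not set the relatives apart. Their median log2 difference was -0.14 in the gene body and -0.19 in the TSS region. For *Car3* over *Car2*, the ratio of gene body TPM was 0.700, 0.642 and 1.57 in Ctrl against 14.2, 43.3 and 15.7 in *Kmt5b* sKO libraries. *Car2* rested on as few as 4 reads, so the size of this ratio is loosely set. *Nmrk2* over *Nmrk1*, the nicotinamide riboside kinase of most tissues, was 1.99, 2.36 and 1.80 in Ctrl against 9.00, 9.08 and 19.8 in *Kmt5b* sKO libraries. *Eno3* stayed below *Eno1*, the widespread enolase, in all libraries, at a ratio of 0.438 ± 0.0572 in Ctrl against 0.734 ± 0.0656 in *Kmt5b* sKO (SD, n = 3 each), without overlap. *Pgam2* over the widespread *Pgam1* had ratios of 0.784, 1.08 and 0.265 in Ctrl against 1.39, 1.85 and 2.06 in *Kmt5b* sKO libraries. *Eno1* and *Pgam1* have near-identical copies in the genome, and reads that fit several places were put at 1 of them at random, so their levels are uncertain.

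*Pygm* exceeded *Pygb*, the brain phosphorylase, in every library, with a ratio of 5.04 ± 0.491 in Ctrl against 10.2 ± 4.68 in *Kmt5b* sKO (SD, n = 3 each), and its groups did not overlap. *Ckm* remained below *Ckb*, the brain creatine kinase, in all 6 libraries, with ratios of 0.219 to 0.654 in Ctrl against 0.357 to 0.833 in *Kmt5b* sKO. *Fabp3* remained below *Fabp5*, the epidermal form, with 0.0539 to 0.184 in Ctrl against 0.158 to 0.309 in *Kmt5b* sKO, and *Mb* exceeded *Ngb*, the globin of neurons, in every library, with 8.83 to 38.6 and 31.7 to 39.3. In the comparisons of *Ckm*, *Fabp3* and *Mb* the groups overlapped. The muscle form was the lesser of the pair for *Eno3*, *Ckm* and *Fabp3* in every library of both genotypes. The other relatives that were listed, *Car1*, *Car12*, *Cygb*, *Eno2* and *Fabp7*, had group means between 0.337 and 5.90 TPM. *Car8*, *Ckmt1*, *Pygl*, *Fabp4* and *Ocm* were not analysed here.

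**Figure D3:**
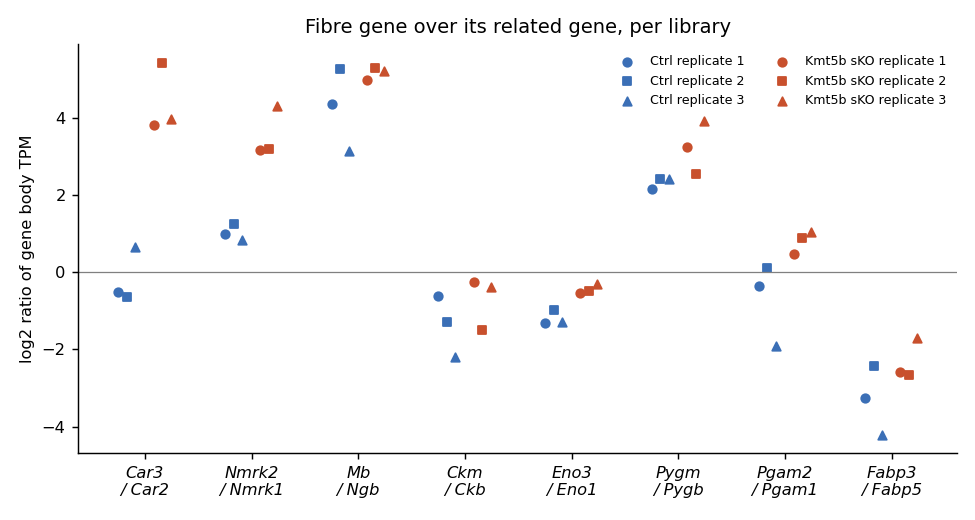
Log2 ratio of gene body TPM of each fibre gene over its relative of other tissues, for each library (points), Ctrl in blue and *Kmt5b* sKO in red. Points above 0 mark libraries in which the fibre gene is the higher of the pair. *Eno3*, *Ckm* and *Fabp3* lie below 0 in all 6 libraries. *Car3* and *Pgam2* lie above 0 in all 3 *Kmt5b* sKO libraries and in 1 Ctrl library each.

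A list was made of 25 genes of adenylate turnover, glycogen handling, glucose and fat uptake and fibre-type mitochondrial subunits. Of these, 23 were listed, with *Aldoa* under 2 gene identifiers. After the filter and without X and Y, 22 entries were tested. In the gene body 2 of these were called higher and 0 lower, against 1.61% and 1.38% of all tested genes. There 17 of 22 were above 0, against 53.8% of all tested genes, with a median of 0.45. In the TSS region 3 were called higher and 0 lower, against 0.932% and 0.731%, with a median of 0.28. The list was chosen with earlier results of these data known, so nothing is read from these counts. *Adssl1*, the muscle adenylosuccinate synthase, passed in both regions. Its gene body had 40.5, 50.4 and 34.9 TPM in Ctrl against 78.9, 76.0 and 76.6 TPM in *Kmt5b* sKO libraries, a log2 difference of 0.89 (limma, adjusted p = 0.065), and its TSS region had a log2 difference of 1.09 (limma, adjusted p = 0.040). *Ak1*, the adenylate kinase of muscle, had 24.0, 27.2 and 17.2 against 56.6, 40.9 and 70.6 TPM in the gene body, with a log2 difference of 1.27 (limma, adjusted p = 0.075). *Cox8b*, a muscle and heart subunit of cytochrome c oxidase, passed in the TSS region, with 25.9, 32.8 and 18.2 against 62.0, 57.5 and 105 RPM (log2 difference 1.52, limma, adjusted p = 0.029). *Ppp1r3a*, the muscle glycogen-targeting subunit of protein phosphatase 1, was called there too, on 0, 2 and 0 reads in Ctrl against 10, 4 and 17 reads in *Kmt5b* sKO libraries. Its Ctrl means were 0.383 RPM and 0.347 TPM, so it passed the filter only through the *Kmt5b* sKO libraries. The genes of this list with the highest levels, *Aldoa* at 157, *Pdk4* at 116 and *Slc25a4* at 73.1 TPM in Ctrl (means of 3), were called in neither region. Both gene body calls were lost without Ctrl replicate 1 or any 1 of the *Kmt5b* sKO libraries. All 3 TSS calls were lost without Ctrl replicate 1 or *Kmt5b* sKO replicate 3, in limma without a trend and without the filter on low values, and without *Kmt5b* sKO replicate 1 *Cox8b* alone was called.

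Members and structural genes of mature fibres had their highest gene body values in the same library. *Kmt5b* sKO replicate 3 had the highest value of the 6 libraries for 10 of 10 members in both regions, where it was the highest for 19.45% of all tested genes in the gene body and 19.2% in the TSS region. Ctrl replicate 3 had the lowest gene body value for 7 of 10 members (33.35% of all tested genes), and Ctrl replicate 1 for the other 3, *Nmrk2*, *Mb* and *Eno3*. Among the Ctrl libraries *Eno3* was highest in replicate 3, at 179 TPM. Of 12 mature fibre markers such as the myosin heavy chains *Myh1*, *Myh2*, *Myh4* and *Myh7*, 12 were highest in *Kmt5b* sKO replicate 3 and 12 lowest in Ctrl replicate 3 in the gene body. All 12 were listed and 10 were tested. Of these, 10 of 10 had a log2 difference above 0 in the gene body (53.8% of all tested genes), with a median of 0.76. In limma 0 passed the threshold there (8 at an unadjusted p under 0.05). *Casq1*, the calcium store protein of fast fibres, passed in the TSS region. The summed gene body level of the 12 markers was 1222 to 2251 TPM in Ctrl against 2650 to 4060 TPM in *Kmt5b* sKO libraries. In a bulk library, fewer cells of a type and less RNA per cell cannot be told apart, and the part of fibre or differentiating cells in the members' values was not tested.

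The 8 satellite cell and myoblast markers summed to 1574 to 2308 TPM in Ctrl against 2077 to 2790 TPM in *Kmt5b* sKO libraries, and 4 of 8 had a log2 difference above 0 in the gene body. Of 7 adipocyte markers, which matter here because *Car3* is also abundant in fat, *Plin1* alone was listed, at 1.49 to 4.74 TPM in Ctrl against 1.31 to 3.40 TPM in *Kmt5b* sKO libraries. The 4 listed of 6 fibroblast markers summed to 5.28 to 10.1 and 5.89 to 8.64 TPM. Of 5 macrophage markers *Cd68* alone was listed, at 214 to 402 and 319 to 326 TPM. For these lists the groups overlapped. The sums of the 3 listed of 5 endothelial markers, 2.50 to 4.23 TPM in Ctrl against 4.38 to 5.05 TPM in *Kmt5b* sKO libraries, did not overlap. Neither did those of the 3 listed of 4 nerve and glia markers, with 8.75 to 9.90 and 14.8 to 23.0 TPM, and *Sox10*, the glial transcription factor among them, was called higher in the gene body (log2 difference 1.56, limma, adjusted p = 0.075). The part of these cells in the members' values was not tested.

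**Figure D4:**
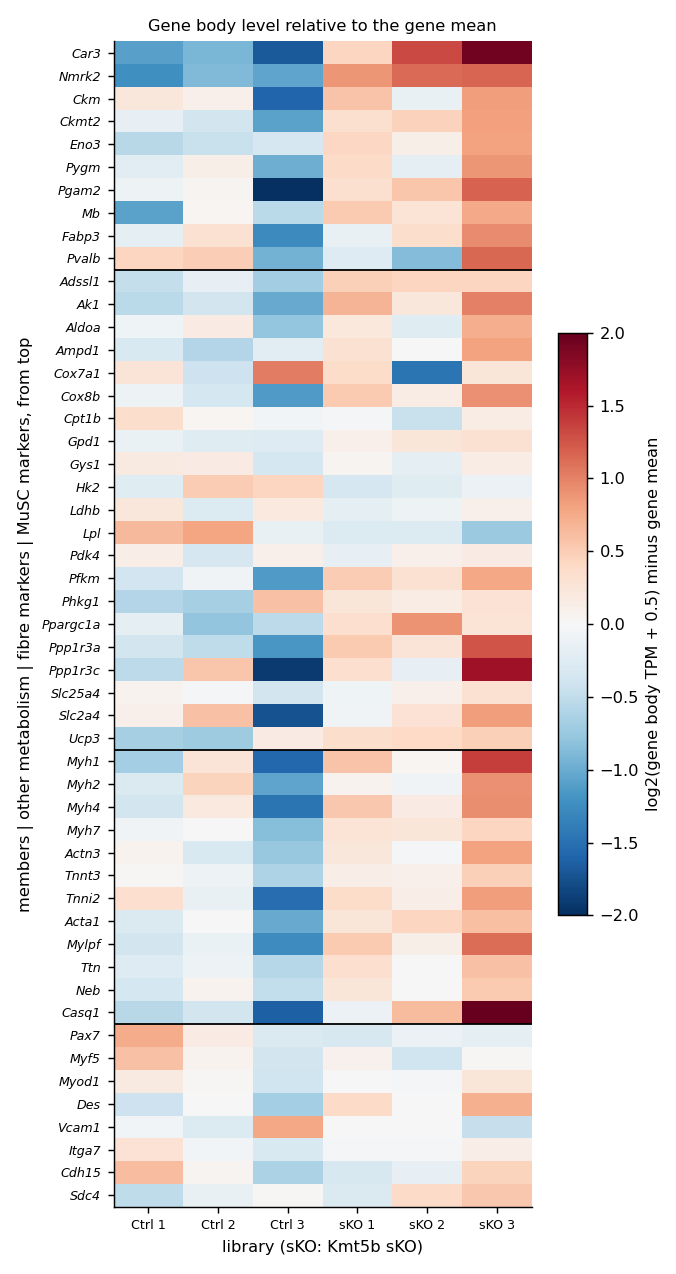
Gene body level of each gene in each library, as log2(TPM + 0.5) minus the gene's mean over the 6 libraries. From the top, the rows are the 10 members, the tested genes of the wider fibre metabolism list, 12 mature fibre markers and 8 MuSC markers. *Kmt5b* sKO replicate 3 is the highest library for all members and fibre markers, and Ctrl replicate 3 the lowest for all fibre markers and 7 members.

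Over the 6 libraries the gene body levels of the members varied together to different degrees. The Pearson correlation of log2(TPM + 0.5) over the 45 pairs of members had a median of 0.75 and ranged from 0.034 (*Nmrk2* and *Pvalb*) to 0.956 (*Pgam2* and *Fabp3*). For *Car3* and *Nmrk2* it was 0.951. These values share libraries, their scaling and the genotype split, and are given as a description. Among 10182 tested genes outside the group with a mean of at least 5 TPM, those most like *Car3* were *Rrp12* (r = 0.995), *2310033P09Rik* (0.991), *Dclk1* (0.988), *Ift122* (0.986) and *Ttll11* (0.985). Likeness in this measure is not likeness in size. *Rrp12* had 18.6 to 20.1 TPM in Ctrl against 21.9 to 25.5 TPM in *Kmt5b* sKO libraries, whereas *Dclk1*, which lies on chromosome 3 as well, had 39.0 to 57.7 and 90.8 to 135 TPM.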

How the data were processed

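The authors ran PRO-seq on cultured MuSCs of 3 Ctrl and 3 *Kmt5b* sKO samples, on isolated nuclei by the study's methods and on permeabilised cells per the labels. The submitters' processing notes name FastQC 0.11.8, Trimmomatic 0.39, STAR 2.6.1d and Picard 2.18.16 and the build GRCm38. Reads that fit several places were kept at 1 random position, duplicates were removed and reads on the gene's strand were counted. The deposited table lists 1 isoform of each of 14546 protein-coding genes. By the study's methods, the authors scaled reads by depth and length, and the deposited RPM values of the TSS region are headed TPM. Each is a whole multiple of what 1 read is worth in its library. All TSS regions share 1 length, so this holds for TPM and RPM alike and does not contradict the heading. The test planned for TPM applied unchanged. The deposited gene body values are TPM. No sample column was left unused. Both units are scaled to a fixed total per library, so a change of all transcription would not appear.

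Genes on X and Y and genes with a mean under 0.5 in either region were left out, which left 12451. R 4.3.3 and limma 3.58.1 were used to fit log2(value + 0.5) on genotype alone, by lmFit and trended eBayes, and the threshold was a Benjamini-Hochberg adjusted p under 0.1. The added 0.5 shrinks the differences of low genes. The pausing index was fitted as the log2 ratio of the TSS to the gene body value without a pseudocount for 11698 genes. Whole reads were recovered for 99.6% to 100% of TSS values and, for bodies under 2000 nt, 97.9% to 99.0% of gene body values, within the rounding of the deposited decimals. They served as alternatives with edgeR 4.0.16 (quasi-likelihood) and DESeq2 1.42.0. The limit of detection was set at 3 reads. The fits were tested on simulated data.

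The members and all lists were chosen with earlier results of these data known. Named were the members, their listed relatives, genes of the wider fibre metabolism list past the threshold in either region or among its 3 highest in the gene body, the 5 genes most like *Car3*, and markers given beside a result. Annotation was GENCODE vM21, and promoter windows came from RefSeq. Python 3.11.15, numpy 2.4.6, pandas 2.3.3 and matplotlib 3.10.9 were also used.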

Additional observations from a re-analysis of the deposited data

How the results depend on the processing

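Under 17 alternatives the fitted log2 differences of the members were above 0 in 152 of 152 values in the gene body. In the TSS region, also under 17, they were above 0 in 152 of 152. Several of these alternatives cannot change a log2 difference: an adjusted p under 0.05, eBayes without a trend, the replicate block and X and Y kept. Changes of the filter cannot do so either. The members were also chosen by this contrast, so nothing is read from these tallies. Of 84 values of the pausing index 58 were above 0 and 26 below. The pausing index turned direction for *Mb* and *Pygm* without Ctrl replicate 1, *Ckm* without *Kmt5b* sKO replicate 3 and *Pgam2* without Ctrl replicate 3. With 1 library left out, the log2 difference of the index ranged from -0.15 to 0.47 for *Mb*, -0.13 to 0.52 for *Pygm*, -0.01 to 0.56 for *Ckm*, -0.40 to 0.11 for *Pgam2* and -0.54 to -0.06 for *Nmrk2*, and the members' median of 0.14 ranged from -0.13 to 0.47.

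Counts of calls moved far more. In the gene body, 372 calls became 0 to 836 with 1 library left out (0 without Ctrl replicate 1 or any *Kmt5b* sKO library, with 1374 to 1706 at an unadjusted p under 0.05 in limma, and 836 without Ctrl replicate 3), 1 at an adjusted p under 0.05, 748 with edgeR and 1295 with DESeq2. The 3 members called became 0 to 3, 1 and, with DESeq2, 6, and the 2 genes of the wider fibre metabolism list called higher became 0 to 5, 0, 5 with edgeR and 6 with DESeq2. *Lpl*, of the same list and named after its values were seen, was called lower without Ctrl replicate 3 and with DESeq2. In the TSS region, 207 calls became 1 to 408 with 1 library left out (1 without Ctrl replicate 1 and 408 without Ctrl replicate 2), 64 at an adjusted p under 0.05, 0 in limma with eBayes without a trend (1292 at an unadjusted p under 0.05) and 0 without a filter on low values (1448). The 4 members called became 0 to 7, 1, 0 and 0. For the pausing index 0 genes were called in limma (452 at an unadjusted p under 0.05), and 1 with 0.5 added to both values. So few calls do not show that the index was alike in both groups. The cause of the moves in these counts was not tested.

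With the replicate number as a block, 0 genes, 0 members and 0 genes of the wider list passed in limma in the gene body or the TSS region (1441 and 1141 genes at an unadjusted p under 0.05). The labels do not say whether same-numbered libraries belong together. Such libraries deviated from their group means with correlations of -0.153, -0.165 and -0.329. Deviations within a group of 3 sum to 0, so these correlations cannot show whether the numbers pair the libraries. Depth limited the values of *Ckmt2*, which had 2 gene body reads in Ctrl replicate 3, and the TSS values of *Car3* and *Pvalb*.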
